A study of Mus musculus with 18 samples.

Results

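The data describe 10 genes of the hepatic acute phase response, Apcs, Lbp, Itih3, Itih4, Hp, Lcn2, Saa1, Saa2, Orm1 and Orm2, in young mice that received gut microbiota from old or young donors. The genes were found by their symbols in the platform annotation of the array and are held by 10 of its 41345 probe sets. A probe set of their own, annotated to no other gene, was held by 9 of these 10 genes and by 22180 genes on the array in all, and Saa1 is represented only by a probe set annotated to both Saa1 and Saa2. Livers of OMT recipients (5 arrays) were compared with livers of YMT recipients (4 arrays), and small intestines of the same groups (5 and 4 arrays) served as a second tissue. OMT recipients were germ-free mice that were colonised with the microbiota of old donors, about 24 months of age in the design text and 2 years in the protocol. YMT recipients were germ-free mice that were colonised with the microbiota of young donors, aged 4 weeks in the protocol and 5 to 6 weeks in the design text. Recipients of both groups carried the genotype label C57BL\6, were 5 to 6 weeks old at the transfer, were kept for 8 weeks and are labelled as 12 or 13 weeks old at sampling. The labels call the arrays of a group biological replicates. The number of donors and cages is not given in the sources used here, so a shared donor or cage cannot be told apart from donor age, and p-values measure the spread among these recipients.

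The acute phase response is a change in the set of plasma proteins that hepatocytes secrete when they sense infection or injury. Interleukin-6 and related cytokines act through gp130 and the transcription factor STAT3, interleukin-1 and tumour necrosis factor act through NF-kB, and C/EBP factors take part in both branches. Positive acute phase proteins bind microbial products, haem, iron or damaged matrix, whereas negative ones, albumin among them, decline when the response is strong.

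Levels are log2 array values, a difference is the OMT mean minus the YMT mean with its standard error (SE), and adjusted p-values come from limma with Benjamini-Hochberg adjustment over all genes tested in a tissue, with calls at 0.05. A gene was tested where its probe set exceeded the array's own median on at least 4 of the 9 arrays of the tissue. Array medians lay between 4.12 and 4.22 in liver and between 4.39 and 4.51 in intestine. The tissue labels held: 9 hepatocyte markers averaged 11.86 to 11.93 on OMT and 11.87 to 11.90 on YMT liver arrays, and 10 enterocyte markers averaged 11.81 to 12.10 on OMT and 11.59 to 12.14 on YMT intestine arrays. The number of arrays limits the precision of every value.

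By the adjusted threshold of limma, 7 of the 9 acute phase genes with their own probe set rose in OMT livers and none fell. Over all 13380 genes tested in liver, 10.4% rose and 8.78% fell, so that 19.2% changed either way. Lcn2 and Apcs rose most, followed by Lbp and Itih3, while Hp, Orm2 and Itih4 rose by smaller amounts and Saa2 and Orm1 did not pass the test. The median difference was 0.82 over the 9 members and -0.01 over all genes tested. All OMT livers lay above all YMT livers for 6 of the 10 probe sets, namely those of Apcs, Lbp, Itih3, Itih4, Hp and Lcn2, whereas 9.64% of all genes tested had that arrangement and 8.51% the opposite one. In whole tissue, more RNA per hepatocyte and more cells of a type that makes the RNA cannot be told apart.

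**Figure D1:**
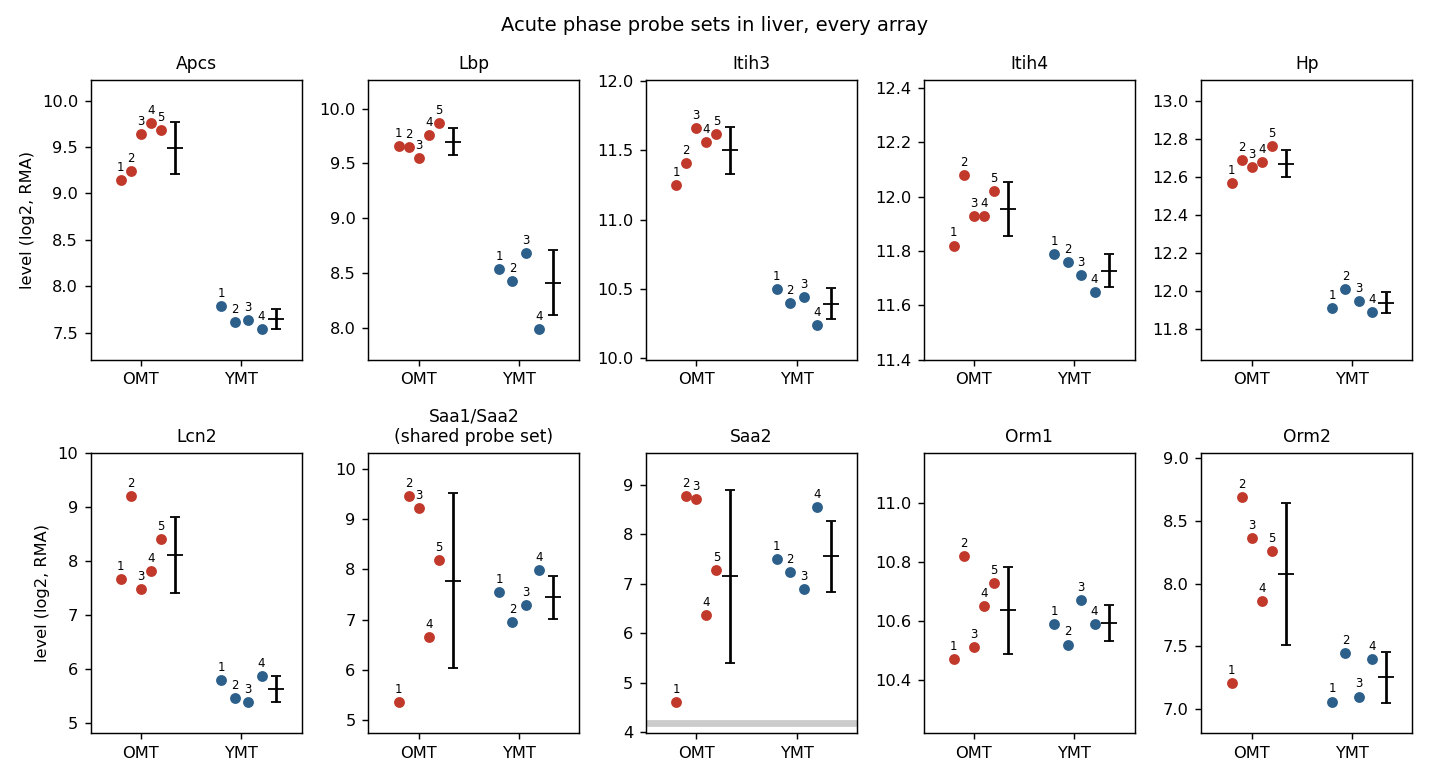
Log2 level of the 10 member probe sets on the 5 OMT and 4 YMT liver arrays; each point is 1 array with its replicate number beside it, and bars show the mean ± SD. OMT points lie wholly above YMT points for Apcs, Lbp, Itih3, Itih4, Hp and Lcn2, and the OMT points of both Saa probe sets span the YMT points.

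Among the members that bind microbial surfaces or their products, Apcs encodes serum amyloid P component, a pentraxin that coats bacteria, nuclear debris and amyloid fibrils and that is a main acute phase reactant of the mouse. Its log2 level was 9.14, 9.24, 9.64, 9.76 and 9.68 in OMT livers 1 to 5, against 7.79, 7.61, 7.64 and 7.54 in YMT livers 1 to 4. The groups did not overlap, and OMT livers 1 and 2 were the lowest of their group. The difference was 1.85 ± 0.13 (SE, adjusted p = 1.49e-05), a 3.60-fold higher level, and the 95% interval ran from 1.55 to 2.14. Apcs held place 28 by p and place 24 by size of rise among the 13380 genes. Without OMT livers 1 and 2 the difference was 2.05. Crp, which encodes the related pentraxin C-reactive protein and is the neighbouring protein-coding gene on chromosome 1, averaged 10.86 in OMT and 10.79 in YMT livers and did not pass the test (0.07 ± 0.09, adjusted p = 0.633).

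The promoter of Apcs is shown because that gene had the smallest p of the members while its neighbour did not pass, and because it holds matches to motifs of the interleukin-6 pathway. Windows of 250 bases before the gene start were taken from RefSeq sequence of build GRCm38.p6, in which 7 of the 10 genes were matched, all but Hp, Lbp and Orm1. Capitals mark matches on either strand to the STAT3 palindrome TTCNNNGAA, which begins 244 bases before the start, and to the type 2 interleukin-6 response element CTGGGAA, read here on the opposite strand, which begins 129 and 52 bases before it. The window lies at chr1:172895055-172895304 on the minus strand.
Apcs: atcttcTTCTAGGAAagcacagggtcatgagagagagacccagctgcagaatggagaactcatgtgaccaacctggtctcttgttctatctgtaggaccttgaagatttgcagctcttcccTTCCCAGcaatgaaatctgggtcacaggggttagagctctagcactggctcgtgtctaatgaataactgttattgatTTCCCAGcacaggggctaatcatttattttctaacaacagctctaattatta
The STAT3 palindrome was found in 7.02% of all 32841 promoter windows of the same length and in 2 of the 7 member windows, those of Apcs and Itih4. The type 2 element was found in 9.1% of all windows and among the members in that of Apcs. No matches of different motifs overlapped, and a match describes letters in the window.

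Lbp encodes lipopolysaccharide-binding protein, which carries bacterial lipopolysaccharide to CD14. Its log2 level was 9.66, 9.65, 9.55, 9.76 and 9.87 in OMT livers, against 8.54, 8.43, 8.68 and 7.99 in YMT livers. All OMT values lay above all YMT values, and YMT liver 4 was the lowest. The difference was 1.29 ± 0.13 (SE, adjusted p = 0.000106), a 2.44-fold higher level.

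Lcn2 encodes lipocalin-2, a secreted protein that binds bacterial siderophores and so withholds iron. Its log2 level was 7.66, 9.20, 7.47, 7.82 and 8.40 in OMT livers, against 5.78, 5.45, 5.38 and 5.87 in YMT livers. No values overlapped, and OMT liver 2 was the highest. The difference of 2.49 ± 0.30 (SE, adjusted p = 0.000357) was a 5.62-fold higher level with a 95% interval from 1.82 to 3.16 on the log2 scale, and it was the 10th largest rise of the tissue. Without OMT livers 1 and 2 it was 2.28. Neutrophils also make Lcn2: 12 neutrophil markers averaged 3.55 to 3.71 on OMT and 3.55 to 3.67 on YMT liver arrays, below the array medians, and S100a8, S100a9, Camp, Ltf, Mpo, Ly6g, Retnlg and Mmp8 did not reach the level needed for a test. Per array, 3 to 4 of the 12 markers exceeded the array median in OMT livers and 4 to 5 in YMT livers. Of the 4 neutrophil markers tested, Ngp fell and 3 did not pass, against 8.78% of all genes tested in liver that fell. The part of neutrophils in the result of Lcn2 was not tested.

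The Lcn2 promoter is shown as that of the member with the largest rise. It lies at chr2:32387740-32387989 on the minus strand, and the capitals mark a match to the C/EBP motif TTGCNNAA that begins 216 bases before the start.
Lcn2: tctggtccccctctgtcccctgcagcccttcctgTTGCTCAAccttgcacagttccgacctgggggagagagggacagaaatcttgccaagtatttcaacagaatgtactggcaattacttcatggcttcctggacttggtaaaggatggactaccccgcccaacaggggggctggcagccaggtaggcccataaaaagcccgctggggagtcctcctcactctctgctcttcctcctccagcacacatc
The C/EBP motif was found in 4 of the 7 member windows, those of Lcn2, Saa1, Saa2 and Orm2, and in 9.57% of all windows. The windows of Saa1 and Saa2 are near-identical, so their matches do not count as independent. The NF-kB consensus was found in none of the 7 and in 7.25% of all windows.

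Hp encodes haptoglobin, the plasma protein that captures free haemoglobin. Its log2 level was 12.57, 12.69, 12.65, 12.68 and 12.76 in OMT livers, against 11.91, 12.01, 11.95 and 11.89 in YMT livers. The gap between the groups was wider than the range within either, and no single liver stood out. The difference was 0.73 ± 0.06 (SE, adjusted p = 5.4e-05), a 1.66-fold higher level.

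Itih3 and Itih4 encode heavy chains of the inter-alpha-trypsin inhibitor family, plasma proteins that associate with hyaluronan or with proteases of the plasma. Itih3 had log2 levels of 11.25, 11.41, 11.66, 11.56 and 11.62 in OMT livers, against 10.50, 10.40, 10.44 and 10.24 in YMT livers. Itih4 had log2 levels of 11.82, 12.08, 11.93, 11.93 and 12.02 in OMT livers, against 11.79, 11.76, 11.71 and 11.65 in YMT livers. Neither gene overlapped between the groups, but for Itih4 the lowest OMT liver and the highest YMT liver were nearly level. Itih3 rose by 1.11 ± 0.10 (SE, adjusted p = 4.92e-05), a 2.15-fold higher level, and Itih4 by 0.23 ± 0.07 (adjusted p = 0.0473), a 1.17-fold higher level. The call of Itih4 was lost when any 1 array other than OMT liver 1 was left out, with differences of 0.20 to 0.25 and adjusted p up to 0.112. The genes are neighbours on chromosome 14, and the log2 ratio of their probe sets on each array is given as a description, since the pair was chosen with the values known. Itih3 minus Itih4 was -0.46 ± 0.16 in OMT and -1.33 ± 0.06 in YMT livers (SD, n = 5 and 4). Listed with the family were 5 further genes. Itih1, the next neighbour, did not pass (0.06 ± 0.07, adjusted p = 0.584). Itih2 rose (0.38 ± 0.07, adjusted p = 0.00331) and Itih5 fell (-0.53 ± 0.14, adjusted p = 0.0242). The call of Itih5 was lost without OMT liver 5 or YMT liver 1 or 3. Ambp, which encodes the bikunin light chain, did not pass (-0.18 ± 0.08, adjusted p = 0.125), and Tnfaip6 was below the level needed for a test. Among all genes tested in liver, 10.4% rose and 8.78% fell.

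Saa1 and Saa2 encode serum amyloid A proteins, apolipoproteins of high-density lipoprotein that are made at very high rates in a full acute phase response. The Saa2 probe set had log2 levels of 4.61, 8.77, 8.72, 6.37 and 7.27 in OMT livers, against 7.51, 7.24, 6.90 and 8.56 in YMT livers. The probe set annotated to both Saa1 and Saa2 had 5.36, 9.46, 9.22, 6.66 and 8.18 in OMT livers, against 7.55, 6.95, 7.29 and 7.98 in YMT livers. The OMT values surrounded the YMT values on both probe sets: OMT livers 2 and 3 lay above every YMT liver, OMT livers 1 and 4 lay below every YMT liver, and OMT liver 5 lay above them on the shared probe set only. The mean difference was -0.40 ± 0.76 for Saa2 (SE, adjusted p = 0.756, 95% interval -2.08 to 1.27). For the shared probe set it was 0.33 ± 0.73 (adjusted p = 0.796, 95% interval -1.29 to 1.96), in a fit over 14376 entries that was added after the data were seen because it holds Saa1. Both intervals include a rise as large as that of Hp as well as a fall of that size. The SD among OMT livers was 1.74 for Saa2, against a median of 0.14 and a 95th percentile of 0.37 over all genes tested, and among YMT livers it was 0.72, against a median of 0.13. Saa1 and Saa2 are near-identical neighbours on chromosome 7, and their signals in these livers may not be separate. The related neighbour Saa4, which encodes a serum amyloid A that is made without stimulation, averaged 11.17 in OMT and 11.16 in YMT livers (0.01 ± 0.14, adjusted p = 0.985). Saa3 averaged 4.89 in OMT and 5.53 in YMT livers and did not pass (-0.64 ± 0.21, adjusted p = 0.0532).

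The likeness of both genes extends to their promoters, which are shown with that of Orm2, a member whose levels followed theirs among the OMT livers. The Saa1 window (chr7:46742981-46743230, minus strand) and the Saa2 window (chr7:46751583-46751832, plus strand) share 238 of 251 aligned positions, or 94.8%. The Orm2 window lies at chr4:63362199-63362448 on the plus strand. Capitals mark matches to the C/EBP motif TTGCNNAA, which begin 182, 183 and 120 bases before the starts of Saa1, Saa2 and Orm2.
Saa1: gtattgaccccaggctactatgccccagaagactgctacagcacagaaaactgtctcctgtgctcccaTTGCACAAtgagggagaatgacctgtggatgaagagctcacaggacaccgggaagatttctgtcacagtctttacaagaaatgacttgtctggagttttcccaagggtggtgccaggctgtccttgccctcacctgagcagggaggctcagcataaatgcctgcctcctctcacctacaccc
Saa2: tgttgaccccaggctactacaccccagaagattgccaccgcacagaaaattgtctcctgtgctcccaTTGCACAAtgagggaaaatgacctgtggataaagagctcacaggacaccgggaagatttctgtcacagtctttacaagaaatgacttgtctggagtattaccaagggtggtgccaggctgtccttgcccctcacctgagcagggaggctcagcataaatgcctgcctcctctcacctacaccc
Orm2: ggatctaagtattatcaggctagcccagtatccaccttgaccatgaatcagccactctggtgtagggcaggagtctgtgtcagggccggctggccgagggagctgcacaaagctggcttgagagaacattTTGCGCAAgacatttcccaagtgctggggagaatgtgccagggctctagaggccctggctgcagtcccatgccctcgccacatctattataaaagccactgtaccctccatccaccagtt
The same 8 letters of the match, TTGCACAA, stand in both Saa windows, and the match in Orm2 reads TTGCGCAA.

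Orm1 and Orm2 encode alpha-1-acid glycoproteins, plasma carriers of basic and lipophilic molecules. Orm1 had log2 levels of 10.47, 10.82, 10.51, 10.65 and 10.73 in OMT livers, against 10.59, 10.52, 10.67 and 10.59 in YMT livers. Orm2 had log2 levels of 7.21, 8.69, 8.36, 7.86 and 8.26 in OMT livers, against 7.06, 7.45, 7.10 and 7.40 in YMT livers. Orm1 overlapped fully, whereas for Orm2 only OMT liver 1 fell within the YMT range. Orm1 did not pass (0.04 ± 0.08 SE, adjusted p = 0.765, 95% interval -0.14 to 0.23), and Orm2 rose by 0.82 ± 0.25 (adjusted p = 0.0409), a 1.77-fold higher level. The call of Orm2 was lost without any 1 of OMT livers 2, 3 and 5 or YMT livers 1 to 4 (differences of 0.67 to 0.89, adjusted p up to 0.0999), while without OMT liver 1 the difference was 1.04 (adjusted p = 0.00283). Orm2 minus Orm1 was -2.56 ± 0.48 in OMT and -3.34 ± 0.25 in YMT livers (SD, n = 5 and 4), a description for the same reason. Orm3, which lies between them on chromosome 4, had a difference of 0.54 ± 0.31 and did not pass (adjusted p = 0.26). Genes of this family are alike in sequence, and part of a probe set's signal may come from a relative.

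**Figure D2:**
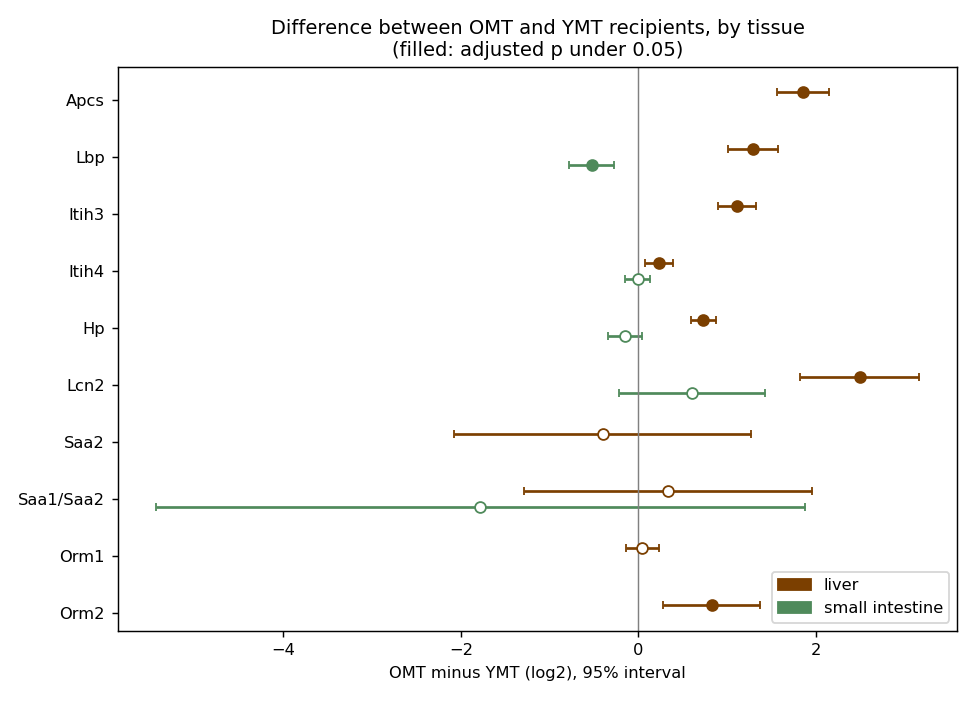
Difference of OMT minus YMT in log2 level for the members tested in liver or intestine, with the 95% interval. Filled points passed an adjusted p of 0.05. Members without a test in intestine have no point there, and the points of the shared Saa1 and Saa2 probe set come from the added fit. In liver, 7 members lie to the right of 0 with filled points, and in intestine Lbp is the filled point, at -0.53.

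The members did not vary alike among the OMT livers. For Saa2, the shared Saa probe set and Orm2, the OMT livers took the same order, 1, 4, 5, 3 and 2 from low to high, over a range of 4.16, 4.10 and 1.48 on the log2 scale. OMT liver 1 was the lowest and OMT liver 2 the highest for 5 of the 10 member probe sets, which also include those of Itih4 and Orm1, and for 476 of 13380 genes (3.56%). Apcs, Itih3 and Hp had OMT liver 1 as their lowest too, but their highest were livers 4, 3 and 5, and for Lbp and Lcn2 the lowest was OMT liver 3. Apcs spanned 0.62, Itih3 0.41, Lbp 0.32, Itih4 0.26 and Hp 0.19 within the OMT group. With OMT livers 1 and 2 both left out, 6 of the 9 members rose. Of 13288 genes tested in that fit, 1158 rose and 994 fell. The difference of Itih4 was 0.23 there, with an adjusted p of 0.0652.

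**Figure D3:**
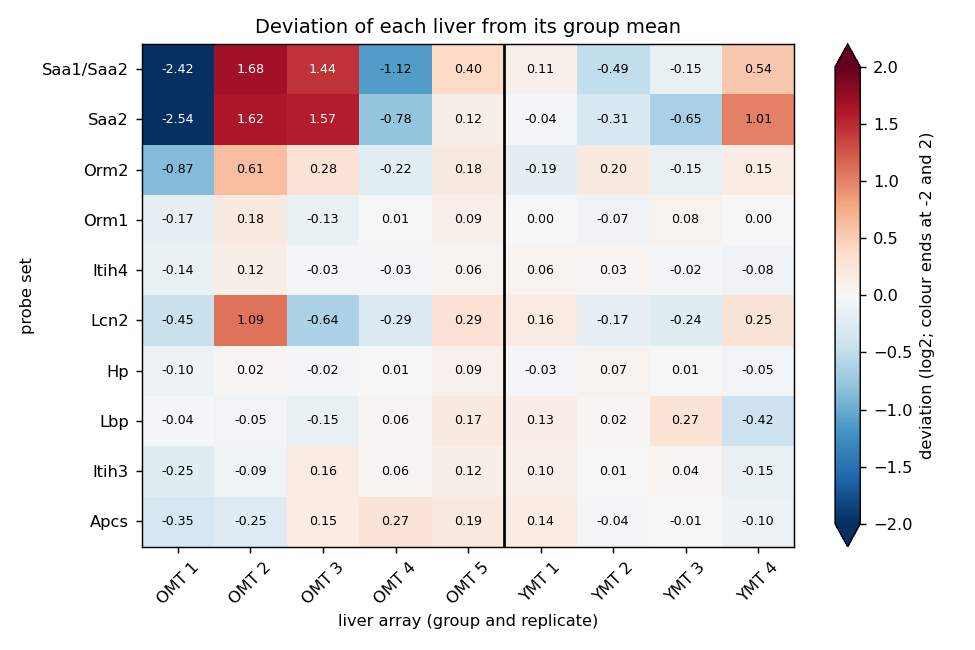
Deviation of each liver array from its group mean in log2 units for the 10 member probe sets, with OMT arrays left of YMT arrays; colours end at -2 and 2. The Saa probe sets show the widest deviations, low in OMT livers 1 and 4 and high in OMT livers 2 and 3.

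In the small intestine the same genes were mostly near or below the array median. The probe sets of Apcs, Itih3, Saa2, Orm1 and Orm2 exceeded the array median on no intestine array, and 4 members were tested. Of these, Lbp fell and Itih4, Hp and Lcn2 did not pass, while over all 13238 genes tested in intestine 3.1% fell and 1.04% rose, or 4.14% in all. Lbp had log2 levels of 4.52, 4.47, 4.37, 4.70 and 4.50 in OMT intestines, against 5.03, 4.90, 4.86 and 5.37 in YMT intestines. All OMT values lay below all YMT values, an arrangement that 6.84% of genes had while 2.8% had the opposite one, and OMT intestines 2 and 3 were below the array median. The difference was -0.53 ± 0.11 (SE, adjusted p = 0.0316), opposite to that in liver. This call was lost without any 1 of OMT intestines 1, 2, 3 and 5 or YMT intestines 1, 2 and 4 (differences of -0.57 to -0.42, adjusted p up to 0.0722).

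Lcn2 had log2 levels of 4.36, 4.72, 4.76, 6.49 and 5.53 in OMT intestines, against 4.26, 4.53, 4.72 and 4.76 in YMT intestines. OMT intestines 4 and 5 lay above the rest, and the difference of 0.60 ± 0.37 (SE, adjusted p = 0.353) did not pass. Hp averaged 4.94 ± 0.12 in OMT and 5.09 ± 0.11 in YMT intestines (SD, n = 5 and 4), a difference of -0.15 ± 0.09 (adjusted p = 0.323). The probe set of Saa1 and Saa2 had 2.47, 2.16, 3.33, 8.61 and 10.25 in OMT intestines, against 6.13, 6.76, 6.99 and 8.70 in YMT intestines. It was below the array median in OMT intestines 1 to 3 and far above it in OMT intestines 4 and 5, the same arrays that were highest for Lcn2. Its mean difference of -1.78 ± 1.64 did not pass (adjusted p = 0.547, 95% interval -5.43 to 1.87, 14217 entries). The Saa2 probe set stayed at 2.15 to 2.98 in OMT and 2.07 to 2.58 in YMT intestines, unlike the shared probe set.

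**Figure D4:**
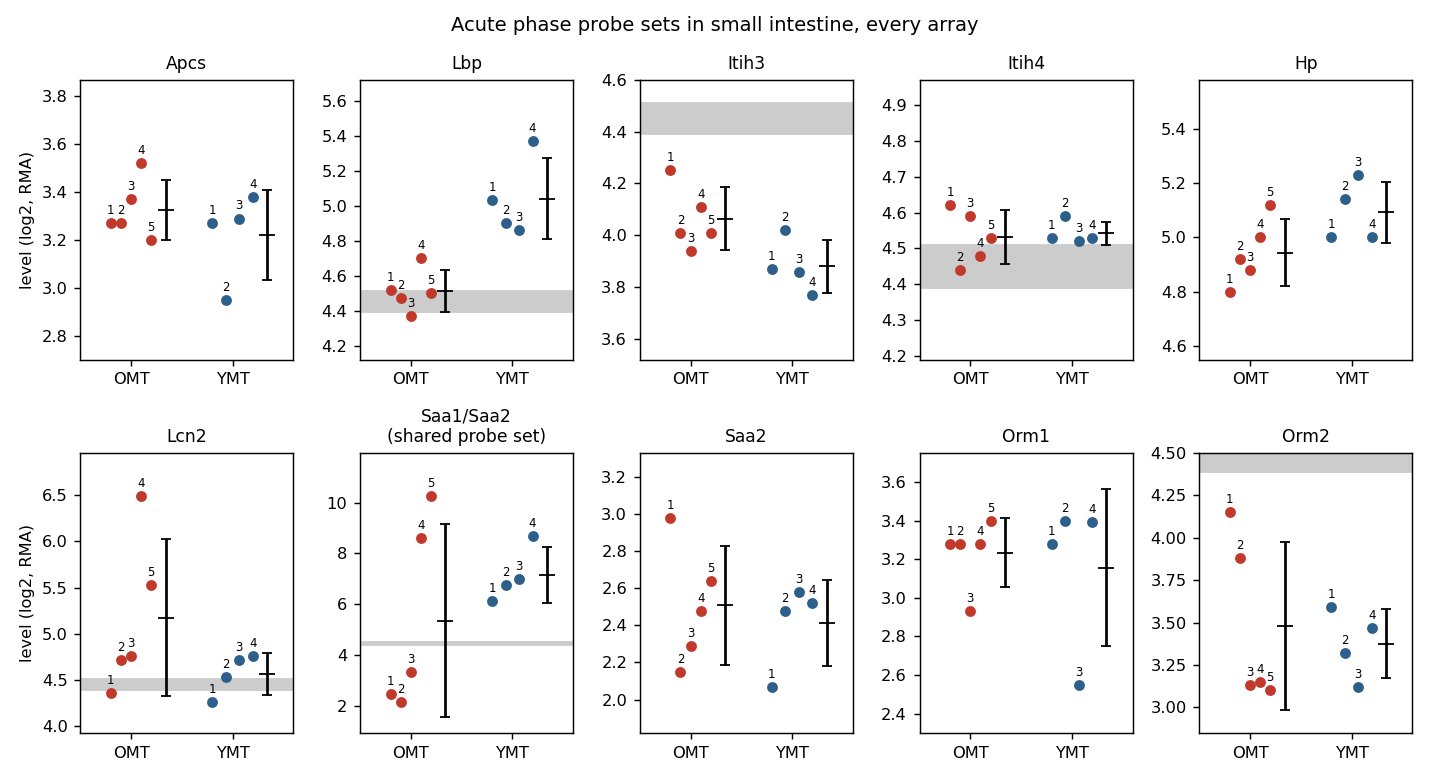
Log2 level of the 10 member probe sets on the 5 OMT and 4 YMT intestine arrays, with the mean ± SD; the grey band is the range of array medians. The probe set of Saa1 and Saa2 runs from 2.16 to 10.25 among OMT intestines, and Lbp is lower on all OMT than on all YMT arrays.

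Whether the tissues were normalized together is not stated, so levels across them are only set side by side. On 8 of the 10 probe sets all liver arrays lay above all intestine arrays, the exceptions being Lcn2 and the probe set of Saa1 and Saa2. For Apcs, Lbp, Itih3, Itih4 and Hp the order was OMT liver, YMT liver and then both intestine groups, with no overlap of OMT livers, YMT livers and intestines. The intestine groups overlapped for all of these but Lbp. No share over all genes was taken for these orders, so the counts describe the members only. The difference of OMT minus YMT was compared between tissues in 1 fit of all 18 arrays. It was larger in liver by 1.82 ± 0.18 for Lbp (SE, adjusted p = 4.07e-06), by 0.88 ± 0.11 for Hp (adjusted p = 3.76e-05) and by 1.89 ± 0.51 for Lcn2 (adjusted p = 0.0215), and Itih4 did not pass (0.24 ± 0.09, adjusted p = 0.104). So 3 of the 4 members tested passed with a higher difference in liver and none with a lower one, against 7.91% and 4.04% of 11965 genes. In intestine the group means of these 4 members were 4.51 to 5.17, near the array medians of 4.39 to 4.51, where differences can be compressed. The other members lay under the array median on every intestine array or had no probe set of their own, and no difference between tissues was tested for them.

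Other plasma proteins of the acute phase were examined in liver from a further list, also chosen with earlier results known. Of 22 further genes tested from a list of positive acute phase proteins, 6 rose, 1 fell and 15 did not pass. Of all genes, 10.4% rose and 8.78% fell. The median difference of the 22 was 0.09, and the list also held Saa4, which is made without stimulation. Fgl1, which encodes a fibrinogen-like protein secreted by hepatocytes, averaged 11.07 in OMT and 9.26 in YMT livers (1.81 ± 0.12, adjusted p = 8.92e-06). Agt, which encodes angiotensinogen, rose by 0.84 ± 0.09 (adjusted p = 0.000159), and Serpina3n, a serine protease inhibitor, rose by 0.61 ± 0.08 (adjusted p = 0.000473). Hpx, Mt1 and Mt2 rose as well. Hamp2, a paralogue of the iron hormone hepcidin, was the gene that fell, to 5.64 in OMT livers against 9.61 in YMT livers (-3.97 ± 0.30, adjusted p = 2.05e-05). The fibrinogen chains Fga, Fgb and Fgg and hepcidin itself, Hamp, were among those that did not pass. Of 8 negative acute phase genes tested, Fetub, the gene of fetuin-B, rose (0.31 ± 0.08, adjusted p = 0.0198), Serpina6, the gene of corticosteroid-binding globulin, fell (-1.21 ± 0.27, adjusted p = 0.0101) and 6 did not pass. Albumin, Alb, averaged 13.24 in both groups of livers (0.00 ± 0.06, adjusted p = 0.983). The call of Fetub was lost without YMT liver 1, 2 or 4 (adjusted p up to 0.0979 over the alternatives).

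Of the cytokines that induce the response, Il6, Tnf and Il22 did not reach the level needed for a test in liver, Il1a fell (-0.49 ± 0.11, adjusted p = 0.00918) and 3 did not pass, Il1b among them. Of 12 receptors tested, Il6ra and Osmr, which bind interleukin-6 and oncostatin M, rose by 0.65 ± 0.20 (adjusted p = 0.0434) and 0.42 ± 0.12 (adjusted p = 0.0308). Il22ra1 and the tumour necrosis factor receptor Tnfrsf1b fell by 0.43 (SE 0.11, adjusted p = 0.0225) and 0.66 (SE 0.14, adjusted p = 0.00701), and 8 receptors did not pass. Of 9 transcription factors tested, 3 rose and 6 did not pass. Beside these counts, 10.4% of all genes tested in liver rose and 8.78% fell. Stat3 averaged 9.34 in OMT and 8.98 in YMT livers (0.36 ± 0.11, adjusted p = 0.0442), with OMT liver 5 apart at 9.72. Creb3l3, an endoplasmic reticulum-bound factor of hepatocytes, averaged 9.98 in OMT and 9.56 in YMT livers (0.41 ± 0.13, adjusted p = 0.0424), and the nuclear receptor Hnf4a rose by 0.55 ± 0.11 (adjusted p = 0.00683). The calls of Stat3, Creb3l3, Il6ra and Osmr were lost in 13, 11, 8 and 6 alternatives, with adjusted p up to 0.115, 0.273, 0.117 and 0.0841. For Stat3 this happened without any 1 array other than OMT livers 2 and 5, and for Creb3l3 without any other than OMT livers 1 and 2 and YMT liver 3. For Il6ra it happened without OMT liver 2, 3, 4 or 5 or YMT liver 1 or 2, for Osmr without OMT liver 2 or YMT liver 1, 2 or 3, and for Il22ra1 without YMT liver 1.

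Genes that the inducing pathways switch on as feedback were split. As background for the counts that follow, 10.4% of all genes tested in liver rose and 8.78% fell. In intestine 1.04% rose and 3.1% fell. Of 7 tested in liver, Nfkbiz (0.62 ± 0.11, adjusted p = 0.003) and Bcl3 (0.57 ± 0.11, adjusted p = 0.0044), both atypical IkB proteins, rose and 5 did not pass, including Socs3, the inhibitor of gp130 signalling (-0.04 ± 0.21, adjusted p = 0.922). In intestine, 2 of the 7 fell: Nfkbia, the gene of the NF-kB inhibitor IkB-alpha (-0.74 ± 0.13, adjusted p = 0.0158), and the kinase gene Pim1 (-1.07 ± 0.14, adjusted p = 0.005). Without YMT intestine 2 the call of Nfkbia was lost. Of 9 transcription factors tested in intestine, Cebpa, the gene of C/EBP-alpha, rose (0.55 ± 0.13, adjusted p = 0.0457) and 8 did not pass. That call was lost without any 1 array other than OMT intestine 4 and YMT intestine 1, with adjusted p up to 0.127 over the alternatives. The difference between tissues passed for Nfkbiz (1.0, adjusted p = 0.00323) and Bcl3 (1.06, adjusted p = 0.0051). Among partners of the members, Hmox1, the haem-degrading oxygenase, rose by 0.97 ± 0.12 (adjusted p = 0.000375) and Cd163, the macrophage receptor of haptoglobin-haemoglobin complexes, rose by 0.65 ± 0.17 (adjusted p = 0.0222). Pltp, a phospholipid transfer protein related to Lbp, fell by 1.14 (SE 0.15, adjusted p = 0.000658), and 5 partners did not pass. The call of Cd163 was lost without OMT liver 5 or YMT liver 3. Kupffer cell and macrophage markers (11) averaged 6.56 to 6.85 on OMT and 6.65 to 6.89 on YMT liver arrays, with Marco higher and Clec4f, Cd5l and C1qc lower in OMT livers. The part of these cells in the results of Cd163 and Hmox1 was not tested.

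**Figure D5:**
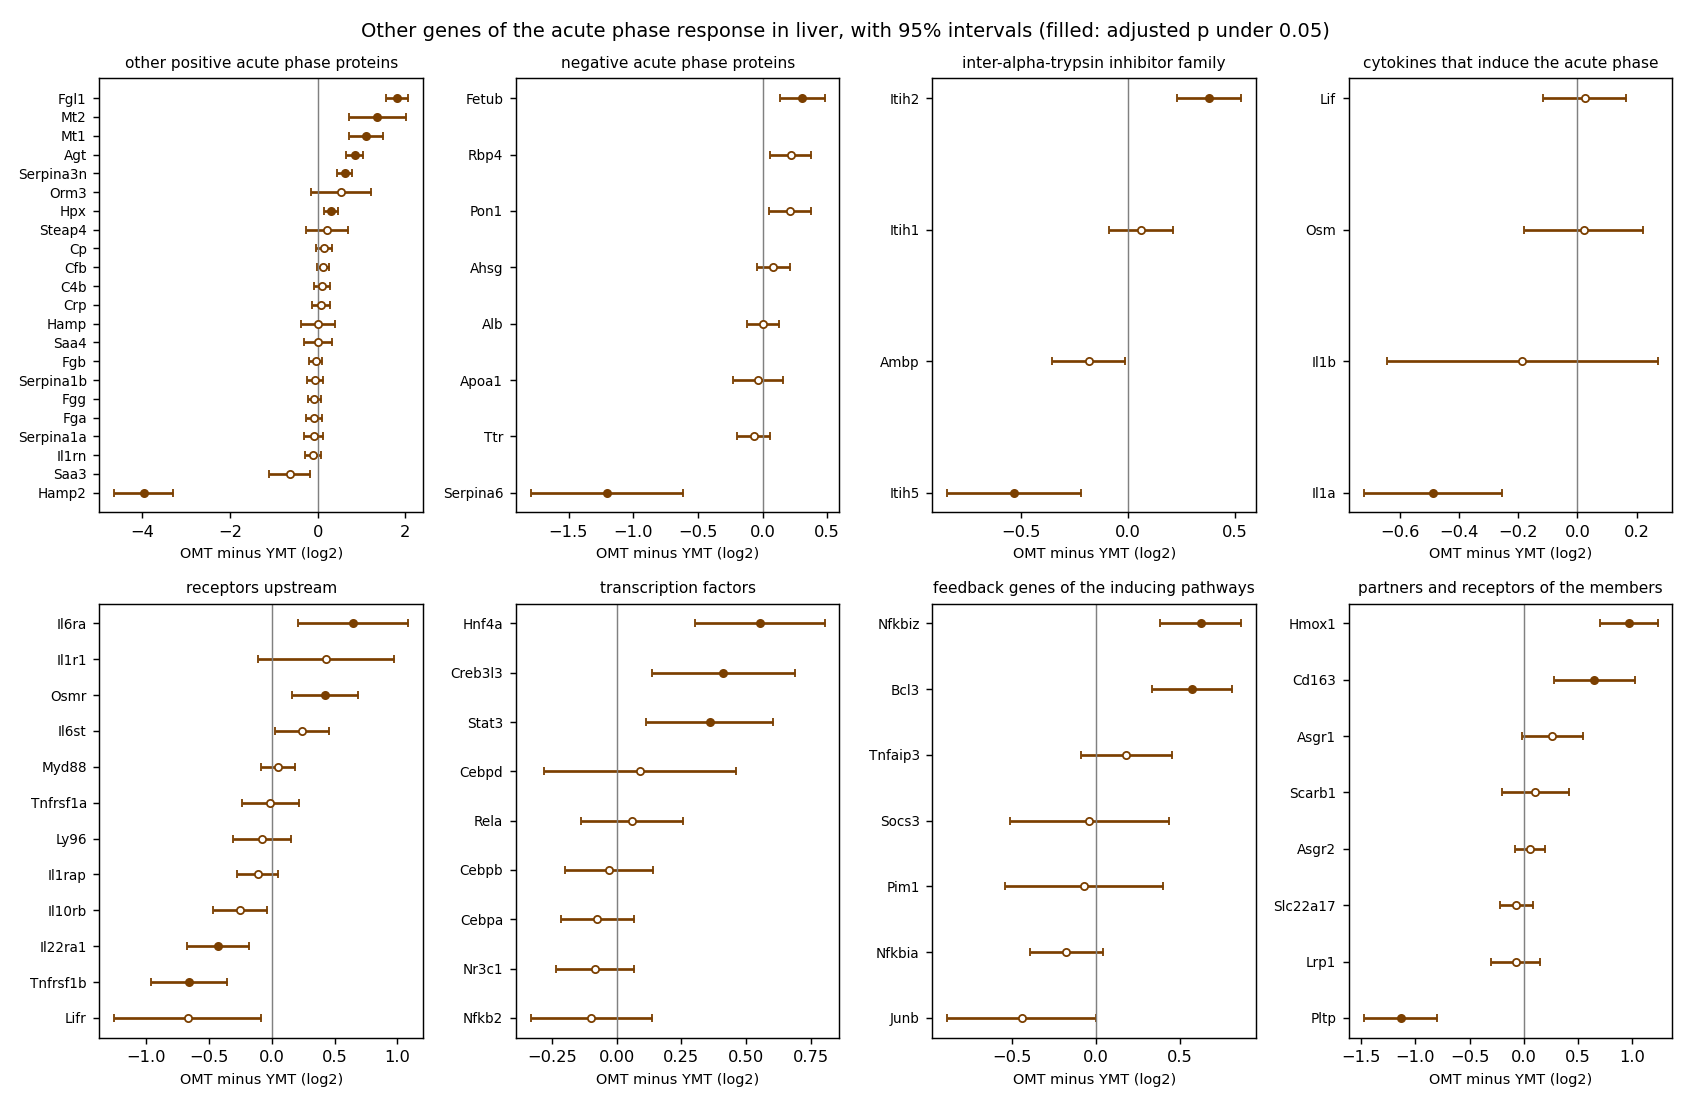
Difference of OMT minus YMT in liver, in log2 units with the 95% interval, for genes of the acute phase pathway grouped by role; filled points passed an adjusted p of 0.05. Fgl1 lies at 1.81 and Hamp2 at -3.97, while Crp, Alb and Socs3 lie close to 0.

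The liver genes whose levels followed Apcs most closely over the 9 arrays were Mat1a, which encodes a methionine adenosyltransferase (Pearson r = 0.993), the cytochrome P450 gene Cyp2c39 (r = 0.987) and the transferrin receptor gene Tfrc (r = 0.986). For Lcn2 they were Prmt3, an arginine methyltransferase gene (r = 0.979), Gmppb, which encodes a subunit of GDP-mannose pyrophosphorylase (r = 0.974), and Ivns1abp (r = 0.969). These r values describe the arrays, which share the step between OMT and YMT livers. Tfrc differed by 2.02 ± 0.14 and Ivns1abp by 1.18 ± 0.12 (SE, adjusted p = 1.26e-05 and 0.000122).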

How the data were processed

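Each sample was hybridised to 1 Affymetrix whole-transcript array, from 250 ng of total RNA per the labels' protocols. The deposited values are log2 levels that the authors made with RMA in Affymetrix Expression Console, by the submitters' processing notes. Neither version is given in the sources used here. The method subtracts background, quantile-normalizes arrays and summarises probes, which compresses differences of dim probe sets. No source names the log base; values of 0.3 to 13.5 were read as base 2, and joint normalization of the tissues is unstated too.

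Groups and replicate numbers came from the sample titles. No arrays were identical. Of the probe sets, 23521 carry 1 symbol, 1814 several and 16010 none in the annotation used here, and 23328 of those with 1 symbol were found in the RefSeq table of GRCm38.p6. A probe set with 1 symbol entered if it exceeded its array's median on at least 4 of 9 arrays, and the probe set of highest mean stood for its gene. OMT was compared with YMT per tissue by limma 3.58.1 (lmFit and eBayes, R 4.3.3), two-sided, and the difference between tissues by an interaction on 18 arrays. The steps were tested on simulated arrays. Figures were drawn with matplotlib 3.10.9.

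The members and gene lists were chosen with earlier results of these data known. Named were all members; per list, up to 4 called genes of smallest p in liver and 2 in intestine; members of lists of up to 9 genes, which could be named whatever their p; Alb, Crp, Stat3, Il6ra, Creb3l3 and Socs3; and 3 genes most like Apcs and Lcn2. Outside this rule, Saa3, Saa4, Orm3, Hpx, Mt1, Mt2, Hamp, Fga, Fgb, Fgg and the single cell type markers were named after their values were seen. Alternatives were other filters, variance priors, array weights, scalings, fits and probe set summaries, the replicate number as a block, and arrays left out; including probe sets of several genes was added after the data were seen.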

Additional observations from a re-analysis of the deposited data

Results flagged for a closer look

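In 3 of the 40 groups of arrays formed by the member probe sets, and in 10 of 130 groups when the named pathway genes are added, 1 array lay apart from the others of its group by Dixon's criterion. Chance gives about 1 such array in 20 groups. Of the members, Itih4 was 4.59 in YMT intestine 2, against 4.52 to 4.53 in the other YMT intestines. Orm1 was 2.93 in OMT intestine 3 and 2.55 in YMT intestine 3, against 3.28 to 3.40 in the other arrays of both groups, all below the array median.

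Among pathway genes in liver, Stat3 was 9.72 and Osmr 5.70 in OMT liver 5, against 9.17 to 9.32 and 5.15 to 5.26 in the other OMT livers. Pim1 was 6.31 in OMT liver 2, against 6.93 to 7.08. Il22ra1 was 6.27 in YMT liver 1, against 5.96 to 6.00, and Itih1 was 10.48 in YMT liver 4, against 10.63 to 10.65. In intestine, YMT replicate 1 had 6.92 for Cebpa, against 6.49 to 6.54 in the other YMT arrays, and 9.43 for Nfkbia, against 9.69 to 9.73.

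The difference of OMT minus YMT was unequal between tissues, by the limma interaction test, for Lbp (higher in liver by 1.82), Lcn2 (1.89) and Hp (0.88). Of the pathway genes picked for this check it was higher in liver for Bcl3 (1.06, adjusted p = 0.0051), Pim1 (1.0, adjusted p = 0.0212), Nfkbiz (1.0, adjusted p = 0.00323), Stat3 (0.65, adjusted p = 0.0257) and Nfkbia (0.56, adjusted p = 0.0351). For Cebpa it was lower in liver (-0.63, adjusted p = 0.0105). All of these pathway genes also had a call in liver or intestine alone, so they are not an unselected set. Of all 11965 genes tested, 7.91% passed with a higher difference in liver and 4.04% with a lower one. Further pathway genes passed outside this pick. Among them, Agt (0.89, adjusted p = 0.000143) and Hmox1 (1.19, adjusted p = 0.0017) were higher in liver and Pltp (-0.81, adjusted p = 0.0112) was lower. The call of Nfkbia was lost in 14 and that of Stat3 in 3 of 24 alternatives.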

How the results depend on the processing

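The liver calls of Apcs, Lbp, Itih3, Hp and Lcn2 held in all 20 alternatives, with differences of 1.78 to 2.05, 1.15 to 1.38, 1.05 to 1.22, 0.70 to 0.78 and 2.22 to 2.65. Itih4 kept its call in 7 and Orm2 in 10 of the 20. No called value changed sign. With 1 array left out, 5 to 7 members were called in liver, 0 to 1 in intestine (1 with all arrays) and 3 in the tissue difference, among 1790 to 2685 genes in liver (2563 with all arrays), 147 to 636 in intestine (548) and 949 to 1664 in the tissue difference (1429). The intestinal call of Lbp was lost without a filter on level (0 members called, 310 genes), and at the 75th percentile no member was tested there (0 called). Intestinal calls numbered 1445 with all 18 arrays in the fit and 1172 with array weights. Taking genes measured in at least 1 tissue gave 5 members for the tissue difference, but the added Apcs and Itih3 passed the filter through liver alone and lay under the array median on every intestine array, so for them this is no test of a tissue difference. Of the liver calls 54.2% were rises, against 43.7% after quantile normalization and 47.5% after median centring, and in intestine 25.2%, against 34.6% and 17.4%; the shift of the median gene stayed under 0.1.

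The main fits did not pair arrays by replicate number, and 4 pairs per tissue cannot show whether the numbers mark real pairs. Deviations of same-numbered OMT and YMT arrays correlated at -0.18 to 0.09 in liver and -0.06 to 0.32 in intestine. In liver 0 OMT and 1 YMT arrays of 4 correlated best with their own number, and in intestine 1 and 1. Liver and intestine arrays of the same group and number correlated at -0.04 to 0.08 for OMT and 0.01 to 0.15 for YMT. With the replicate number as a block, 1459 genes were called in liver, 740 higher and 719 lower, with Itih4 at 0.21 (adjusted p = 0.178) and Orm2 at 0.78 (adjusted p = 0.0552); the other 5 liver members and intestinal Lbp kept their calls. In intestine 5 members lay under the array median on every array and were not tested there.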
